A study of Mus musculus with 20 samples.

Results

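Btbd7 knockout (KO) cells were compared with unedited wild-type cells of SIMS, a mouse salivary gland epithelial line. All libraries that carried either label were taken, which gave 8 of the 20 libraries of the series: 4 of Btbd7 KO and 4 of wild type. Both groups were grown in DMEM with 10% FBS, and total RNA was made into stranded libraries. The KO had been made with CRISPR/Cas9, and the labels do not say whether the Btbd7 KO cells are 1 clone or a pool. Nor do they say whether replicates came from separate cultures, so p-values measure only the spread between these libraries, which may be technical. The Btbd7 KO is the negative control of a study of Zcchc8, a subunit of a nuclear RNA decay complex, and the other 12 libraries are 3 Zcchc8 KO clones with 4 libraries each. Those clones are given below only beside Btbd7 KO, and they were set against the same wild-type libraries.

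BTBD7 is a protein with BTB domains, a fold through which many proteins bind each other and Cullin 3 ubiquitin ligases. It is known from embryonic salivary glands and lungs, where fibronectin at the base of a forming cleft induces it locally. There it raises Snail2 (gene Snai2), a repressor of transcription, lowers E-cadherin (gene Cdh1) and loosens cell contacts so that the epithelium can branch.

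The Btbd7 KO libraries held 8280397 to 17115112 counts in genes and the wild-type ones 13876944 to 17771804. Wild-type replicate 1 stood apart: it had at least 1 count at 14245 genes, where wild-type replicates 2 to 4 had 17442 to 18791. Between it and the others the chi-square of gene counts per degree of freedom was 38.9 to 78.6, against 6.51 to 18.2 among the other wild-type libraries and 3.12 to 4.14 among those of Btbd7 KO. Each comparison of genes was therefore repeated without wild-type replicate 1, and the tables of regulatory features leave that library out. The summed level of 6 markers of ductal and general epithelium lay between 3752.9 and 3883.7 CPM in Btbd7 KO and between 2876.4 and 4565.9 CPM in wild type, where CPM is the count scaled for depth by the TMM library size. The 5 myoepithelial markers summed to 401 to 421 CPM in KO and 252 to 398 in wild type, nearly all from Krt14, and of their defining markers Acta2 and Cnn1 had 0 counts in all 8 libraries. The 5 acinar markers summed to 109 to 115 CPM in KO and 167 to 189.7 in wild type, nearly all from Aqp5, with Smr3a and Pip at 0 counts in every library and Prol1 at 0 in KO and 0 to 27 counts in wild type. The 5 immune markers summed to 5.44 to 6.59 CPM in KO and 4.52 to 6.19 in wild type, mostly from Cd68, with Adgre1 and Cd3e at 0 and Ptprc at 0 to 6 counts in KO and 0 in wild type. Endothelial markers summed to at most 0.422 CPM. The part of such cells in the results was not tested.

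The bases upstream of the RefSeq start of Btbd7 are shown because the gene lies where chromosome 12 changed direction, described further on. They are given from RefSeq on GRCm38.p6 at chr12:102878443-102878692, minus strand, 5′ to 3′, ending at the base before the RefSeq transcription start, with the palindromic E-box CACGTG in capitals. The Ensembl gene model given next reaches into this window.
Btbd7: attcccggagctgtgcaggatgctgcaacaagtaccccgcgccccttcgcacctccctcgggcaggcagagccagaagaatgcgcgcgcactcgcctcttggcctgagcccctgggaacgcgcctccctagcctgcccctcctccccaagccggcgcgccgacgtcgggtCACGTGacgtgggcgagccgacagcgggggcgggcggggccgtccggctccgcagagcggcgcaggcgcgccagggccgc
The window of 250 bases holds 32 CG dinucleotides, more than 95.4% of 32851 RefSeq promoter windows of the same length, whose median is 6. The letters CACGTG, searched on both strands, begin 80 bases before the start and occur in 6.02% of all windows. The letters CAGGTG, an E-box known for Snail family binding, have no match on either strand in this window and occur in 17.2% of all windows.

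Btbd7 (ENSMUSG00000041702.7, chromosome 12, 102780797 to 102878471, minus strand, GRCm38) was read in every library. Its level was 95.8, 103, 99.6 and 97.8 CPM in Btbd7 KO replicates 1 to 4 and 209, 192, 206 and 200.3 CPM in wild-type replicates 1 to 4. The groups did not overlap. The KO level was 0.491 times the wild-type level (log2 fold change -1.03, SE 0.06, edgeR adjusted p = 2.8e-12), with means of 99.2 ± 3.23 CPM in KO and 202 ± 7.64 CPM in wild type (SD, n = 4 each). It was also called lower without wild-type replicate 1 (edgeR adjusted p = 2.11e-16). In the 3 Zcchc8 KO clones it was -0.03, 0.06 and 0.01. Editing of a coding exon can leave the amount of RNA as it was, and the sequence at the cut was not analysed here. PROMPT regions (promoter upstream transcripts, made away from a gene) were counted by the authors, and their extent is not given in the sources used here. That of Btbd7 held 0 to 8 counts in the Btbd7 KO libraries and 0 to 7 in the 3 wild-type libraries of that table, and it did not pass the test (log2 fold change -0.38, SE 0.77, edgeR adjusted p = 0.869). In the Zcchc8 KO clones the same region was at 2.93, 2.89 and 2.41 on the log2 scale.

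The axis in which BTBD7 is known to act was examined next. Fibronectin (Fn1, chromosome 1, 71585520 to 71653200), the matrix protein that induces Btbd7 in clefts, was at 5442.9, 5602.9, 5528.2 and 5219.9 CPM in KO and 2785.9, 2837.1, 3020.2 and 3016.7 CPM in wild type. It was 1.87 times higher in KO without overlap (log2 fold change 0.90, SE 0.06, edgeR adjusted p = 1.37e-10), and in the clones it was at 0.42, -0.15 and 0.79. Cdh1, E-cadherin, was at 434, 421, 395 and 404 CPM in KO and 404, 405, 419.9 and 362 CPM in wild type. These groups overlapped (log2 fold change 0.06, SE 0.06, edgeR adjusted p = 0.563). Snai2 had too few counts to be tested: 15, 16, 2 and 7 counts in Btbd7 KO replicates 1 to 4 and 0 in each wild-type library. Set against a floor of 3 counts per wild-type library, its mean level of 0.701 CPM (SD 0.36) was at least 3.65-fold higher, a bound that covers counting error only. The bound is for the mean of uneven libraries, not for each of them, and Btbd7 KO replicate 3 held only 2 counts.

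Other repressors of E-cadherin were near the limit of the test. Snai1, chosen after its values were seen, did not pass (log2 fold change 0.74, SE 0.30, edgeR adjusted p = 0.0914). Zeb2 rose (log2 fold change 0.81, SE 0.25, edgeR adjusted p = 0.0273), a call lost without Btbd7 KO replicate 1 or 4 or wild-type replicate 3. Zeb1, also chosen after its values were seen, was at -0.88 (edgeR adjusted p = 0.0184), a call lost without wild-type replicate 1 (-0.46, edgeR adjusted p = 0.0929) or without Btbd7 KO replicate 1 or 2. In all, 7 of the 10 genes of this axis were tested, with 2 higher and 2 lower, Btbd7 included. The shares over all tested protein-coding genes were 9.63% higher and 9.62% lower.

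Across the genome 2406 of 15297 tested genes were called (15.7%, edgeR, adjusted p under 0.05), 1183 higher (7.73%) and 1223 lower (8.0%) in Btbd7 KO. With the libraries of these 2 groups alone in the fit 1237 genes were called. Of the genes described below, 9930111J21Rik1, Ahr, Col1a1, Dicer1, Foxc1, Gli1, Hif1a, Ifitm3, Itga3, Jag1, Jup, Klhl24, Krt14, Krt19, Otub2, Ubr7, Zeb1 and Zfyve21 lost the call in that fit. Of the 2406 genes called in the fit of all 5 groups, 2210 are annotated as protein-coding, out of 11481 tested (19.2%). Among them 1106 were higher (9.63%) and 1104 lower (9.62%). Most changes were small. The median log2 fold change of higher protein-coding calls was 0.42 and of lower ones -0.39, and a log2 fold change beyond 1 was reached by 122 higher and 119 lower genes. Without wild-type replicate 1, 2668 of 15547 genes were called (17.2%), 1388 higher (8.93%) and 1280 lower (8.23%). Among protein-coding genes 2459 of 11565 were called (21.3%), 1306 higher (11.3%) and 1153 lower (9.97%). Of the protein-coding genes, 1888 were called both with and without that library in the same direction, and 0 in opposite directions.

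The calls were unevenly spread over chromosomes. On chromosome 12, which carries Btbd7, 180 of 406 tested protein-coding genes were higher (44.3%, against 9.63% over all chromosomes) and 44 were lower (10.8%). Chromosomes 11 and 19 also held many higher genes, 316 of 954 (33.1%) and 107 of 406 (26.4%), and chromosome 3 held many lower ones, 200 of 564 (35.5%, against 9.62% over all). On each of the other 16 chromosomes between 2.11% and 9.25% of genes were higher and between 5.24% and 19.2% lower. Chromosomes 11, 12 and 19 together held 15.4% of the tested protein-coding genes and 603 of the 1106 higher calls (54.5%), and chromosome 3 held 4.91% of the genes and 18.1% of the lower calls.

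**Figure D1:**
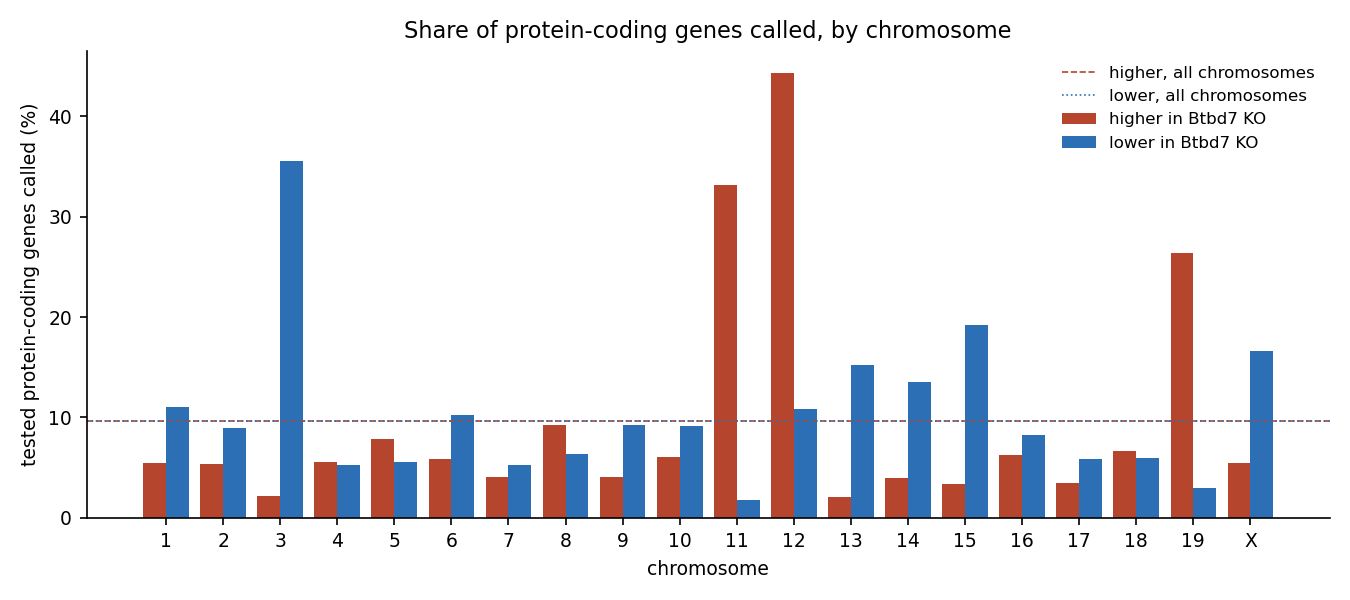
Share of tested protein-coding genes called higher (red) and lower (blue) in Btbd7 KO on each chromosome, in percent, with dashed and dotted lines at the shares over all chromosomes (9.63% and 9.62%, drawn almost on top of each other). Chromosomes 12, 11 and 19 stand above the line for higher genes at 44.3%, 33.1% and 26.4%, and chromosome 3 stands out for lower genes at 35.5%.

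Chromosome 12 was split by the position of Btbd7. On the centromeric side, 180 of 323 genes were higher (55.7%) and 3 lower. The median log2 fold change was 0.38, a ratio of 1.30, and 294 of the 323 estimates lay above 0. On the telomeric side, 0 of 82 genes were higher and 40 lower (48.8%). There the median was -0.35, a ratio of 0.785, and 76 of the 82 estimates lay below 0. Without wild-type replicate 1 the centromeric side had 212 higher and 4 lower genes (median 0.38) and the telomeric side 0 higher and 48 lower (median -0.36). Since chromosome 12 was singled out with earlier results known, no p is given for it.

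The change of sign lay close to Btbd7. Within 5 Mb on the centromeric side 25 of 30 estimates lay above 0, and within 5 Mb on the telomeric side 15 of 16 lay below 0. In windows of 10 Mb counted from the start of Btbd7, the median was between 0.28 and 0.48 in each of the 10 centromeric windows, and it was -0.34 and -0.48 in the telomeric ones. The window nearest to Btbd7 on the centromeric side had a median of 0.42 and the farthest, 90 to 100 Mb away, one of 0.28.

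**Figure D2:**
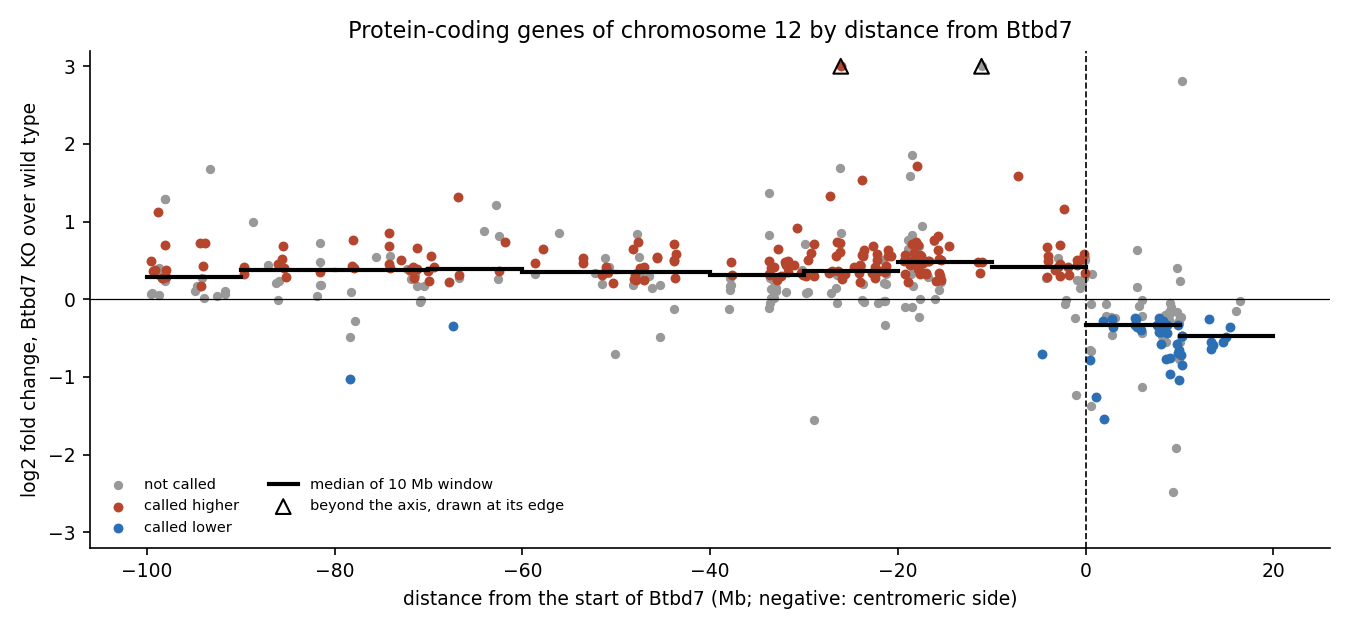
Log2 fold change (Btbd7 KO over wild type) of each tested protein-coding gene of chromosome 12 against its distance in Mb from the start of Btbd7, with black bars at the medians of 10 Mb windows. The bars lie between 0.28 and 0.48 on the centromeric side and drop to -0.34 and -0.48 beyond Btbd7.

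Single libraries showed the same split. The median of the log2 ratios to the wild-type mean was 0.40, 0.36, 0.38 and 0.37 in Btbd7 KO replicates 1 to 4 for the centromeric genes, while the wild-type libraries lay between -0.03 and 0.03. For the telomeric genes it was -0.34, -0.31, -0.35 and -0.34 in KO and between -0.07 and 0.08 in wild type. The groups did not overlap on either side. The Zcchc8 KO clones, set against the same wild-type libraries, had medians of 0.01, -0.07 and -0.08 on the centromeric side and -0.12, -0.00 and -0.07 on the telomeric side. Against the mean of those clones, where 43.6% of protein-coding genes were called, Btbd7 KO was higher at 222 and lower at 8 centromeric genes and higher at 3 and lower at 47 telomeric ones. Fewer cells with a change and a smaller change in every cell cannot be told apart in these bulk libraries.

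Neighbours of Btbd7 showed both directions. The start of Ubr7, of a ubiquitin ligase family that recognises N-terminal degradation signals, lies 120.5 kb away on the centromeric side (chromosome 12, 102757967 to 102777707). Ubr7 was at 55.3, 56.4, 48.0 and 51.2 CPM in Btbd7 KO replicates 1 to 4 and at 35.8, 45.1, 44.2 and 42.6 CPM in wild type. All KO libraries were above all wild-type ones (log2 fold change 0.33, SE 0.09, edgeR adjusted p = 0.0143), and without Btbd7 KO replicate 2 the value was 0.30 and missed the threshold. Golga5, a Golgi tether farther out on the same side, was at 39.1, 32.3, 35.2 and 35.1 CPM in KO and 19.1, 23.2, 28.6 and 28.7 CPM in wild type, again without overlap (0.51, SE 0.12, edgeR adjusted p = 0.00289). Itpk1, an inositol phosphate kinase gene between them, rose by 0.58 on the log2 scale (SE 0.14). Tmem251 and Gon7, which lie closer to Btbd7 than Itpk1 does, had log2 fold changes of 0.28 and 0.53 and did not pass (adjusted p of 0.274 and 0.103 in edgeR).

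On the telomeric side the nearest called gene was Otub2, a deubiquitinase whose start lies 510.2 kb away. It was at 4.46, 5.57, 5.71 and 4.56 CPM in KO and 13.3, 8.16, 6.28 and 7.15 CPM in wild type. Wild-type replicate 1 was the highest library, and without it the log2 fold change went from -0.79 (edgeR adjusted p = 0.0294) to -0.51 (edgeR adjusted p = 0.114). The call was also lost without Btbd7 KO replicate 1, 2 or 4. Ddx24, a nucleolar RNA helicase just beyond it, did not pass (-0.07, edgeR adjusted p = 0.588). Serpina9, a serine protease inhibitor 1.14 Mb away, was the nearest gene called with and without that library (-1.26, SE 0.25, edgeR adjusted p = 0.000849). Dicer1, the RNase that cuts microRNA precursors, was at 163, 162, 169.8 and 169.5 CPM in KO and 231, 172, 199 and 204 CPM in wild type, without overlap (-0.28, SE 0.07, edgeR adjusted p = 0.00395). Against the mean of the Zcchc8 KO clones Dicer1 was at 0.02, and Serpina9 at -1.03.

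Few genes of chromosome 12 went far beyond the shift of their side. The 5 genes that the naming rule picked for their increase were all centromeric. They were Ltbp2, a matrix protein related to the TGF-beta binding proteins, Flrt2, an adhesion receptor, Tmem229b, Wdr89 and the tetraspanin Tspan13. Flrt2 (chromosome 12, 95692226 to 95785215) was at 42.2, 43.8, 38.2 and 39.7 CPM in KO and 20.8, 9.14, 14.4 and 10.6 CPM in wild type, and every KO library was above every wild-type one (edgeR adjusted p = 7.34e-07, log2 fold change 1.58, SE 0.18). The other log2 fold changes were 1.72 for Ltbp2 (SE 0.43), 1.54 for Tmem229b (SE 0.26), 1.33 for Wdr89 (SE 0.25) and 1.32 for Tspan13 (SE 0.19). At Ltbp2 the wild-type libraries held only 14 to 49 counts. In the Zcchc8 KO clones Flrt2 was at 1.02, -1.06 and 0.85 and Tmem229b at 0.92, -1.17 and 0.72, against the same wild-type libraries. Ltbp2 was at -0.57, -0.01 and -1.99 there, Wdr89 at 0.46, 0.47 and 0.37 and Tspan13 at -1.13, 0.22 and 0.71. Among abundant genes of that side, the actin crosslinker Actn1, chosen after its values were seen, was at 647, 656, 673 and 637 CPM in KO and 405, 408, 414 and 402 CPM in wild type (0.68, SE 0.05, edgeR adjusted p = 1.37e-10). The ribosomal protein gene Rps7 rose by 0.69 (SE 0.13) and the small GTPase gene Rhob by 0.72 (SE 0.11).

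Besides Btbd7 itself, the 5 genes that the rule picked for their decrease on chromosome 12 were Clmn, Serpina9, Ahnak2 and Zfyve21 on the telomeric side and Grhl1 on the centromeric side. Clmn, which encodes calmin, an actin-binding membrane protein, was at 6.75, 7.70, 9.06 and 8.45 CPM in KO and 22.8, 25.7, 22.3 and 21.5 CPM in wild type. The groups were far apart (log2 fold change -1.54, SE 0.13, edgeR adjusted p = 5.63e-09). Ahnak2, a giant scaffold protein, fell by 1.04 on the log2 scale (SE 0.07) and Zfyve21 by 0.96 (SE 0.27), the latter with its call lost without Btbd7 KO replicate 2. In the clones Clmn was at -1.18, 0.15 and -0.47, Serpina9 at -0.11, 0.20 and -0.76 and Ahnak2 at -0.39, 0.01 and -0.54. Zfyve21 was at -0.26, -0.29 and 0.13 there and Grhl1 at -0.48, -0.14 and -0.09. The 3 lower genes on the centromeric side went against the shift around them. Grhl1, a transcription factor of epithelial junction and desmosome genes, was at 19.3, 18.4, 18.7 and 15.1 CPM in KO and 39.1, 38.6, 29.2 and 39.1 CPM in wild type (-1.03, SE 0.11, edgeR adjusted p = 5.45e-07). Galc, a lysosomal galactosidase, was at -0.71 (edgeR adjusted p = 0.000278) and Ahr, the aryl hydrocarbon receptor, at -0.35 (edgeR adjusted p = 0.00841), or -0.22 without wild-type replicate 1. Galc and Ahr were chosen after their values were seen.

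The shift on chromosomes 11, 19 and 3 was smaller. On chromosome 11 the median log2 fold change was 0.23, and the library medians were 0.25, 0.27, 0.24 and 0.23 in KO and between -0.10 and 0.05 in wild type. On chromosome 19 the median was 0.19, with library medians of 0.20, 0.22, 0.20 and 0.19 in KO and between -0.12 and 0.07 in wild type. On both, wild-type replicate 1 was the lowest library, and the KO libraries were above all wild-type libraries. Without it the medians were 0.22 on chromosome 11, with 360 genes higher, and 0.16 on chromosome 19, with 113 higher. Zcchc8 KO clone 2 had medians of 0.13 on chromosome 11 and 0.15 on chromosome 19 against the same wild-type libraries, while clones 1 and 3 were at -0.04 and -0.05 on chromosome 11 and at -0.11 and -0.04 on chromosome 19.

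On chromosome 3 the median was -0.21, and the KO library medians were -0.19, -0.20, -0.21 and -0.20, below the wild-type range of -0.03 to 0.03. The Zcchc8 KO clones had medians of -0.34, -0.33 and -0.19 there against the same wild-type libraries. Set against the clones in place of wild type, Btbd7 KO had a median of 0.05 on chromosome 3, so the sign on this chromosome depended on which line was the control.

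**Figure D3:**
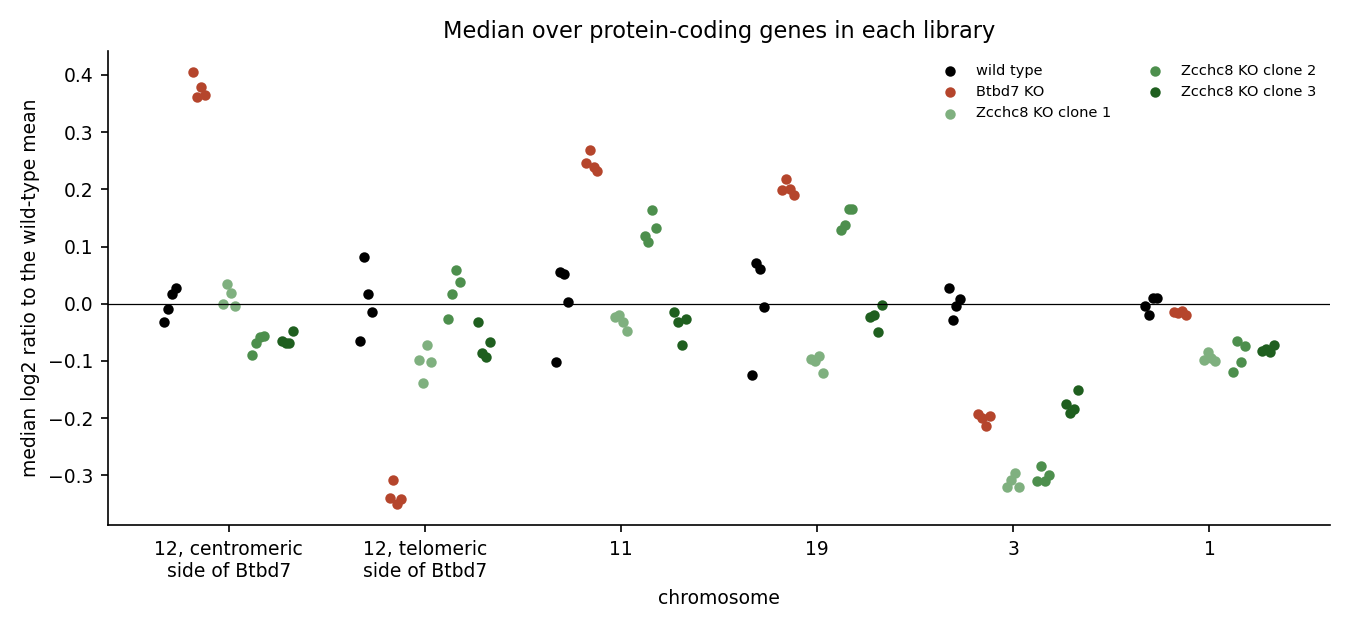
Median over protein-coding genes of the log2 ratio to the wild-type mean, with 1 point per library (4 per line), for both sides of chromosome 12 and for chromosomes 11, 19, 3 and 1. Btbd7 KO (red) stands apart from every other library on both sides of chromosome 12, at 0.36 to 0.40 and -0.35 to -0.31, while on chromosome 3 all edited lines lie below wild type.

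In windows of 10 Mb over the whole genome with at least 20 tested genes, 198 in all, 13 had a median above 0.25, and they lay on chromosomes 12 (7 windows), 11 (4) and 19 (2). A median below -0.25 was found in 6 windows, on chromosomes 3 (4), 12 (1) and X (1). On chromosome 11, Zcchc8 KO clone 2 had medians of 0.25, 0.33 and 0.32 at 80 to 90, 90 to 100 and 100 to 110 Mb. Btbd7 KO was at 0.25, 0.33 and 0.34 there, and clones 1 and 3 were below 0. In the remaining high window of chromosome 11, at 0 to 10 Mb, every clone was below 0. The low windows of chromosomes 3 and X had medians below 0 in every clone too. Outside chromosomes 3, 11, 12 and 19, 491 of 9151 protein-coding genes were higher (5.37%) and 831 lower (9.08%), with a median log2 fold change of 0.01.

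Outside chromosome 12, 753 genes rose and 787 fell among protein-coding genes with a mean of at least 50 counts that were called with and without wild-type replicate 1. The 10 largest and 10 lowest of these are described first. They were picked by these same values, so groups that do not overlap are no further evidence for them. Pcdh19 (chromosome X, 133582860 to 133688987), a protocadherin that mediates adhesion between like cells, was at 62.8, 59.7, 54.3 and 60.1 CPM in KO and 3.51, 5.73, 5.53 and 4.34 CPM in wild type. The KO level was 12.4 times the wild-type level (log2 fold change 3.63, SE 0.13, edgeR adjusted p = 3.01e-16). In the Zcchc8 KO clones Pcdh19 was at 2.34, 0.30 and 4.23 against the same wild-type libraries, and clone 2 did not pass (edgeR adjusted p = 0.126).

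Stk39 (chromosome 2, 68210445 to 68472268) encodes SPAK, a kinase that activates sodium-coupled chloride cotransporters. It was at 16.9, 19.6, 17.1 and 16.1 CPM in KO and 3.19, 3.18, 2.54 and 5.22 CPM in wild type, without overlap (log2 fold change 2.29, SE 0.25, edgeR adjusted p = 3.88e-07), and in the clones at -0.77, -3.08 and 0.76. Klhl1, a BTB and kelch protein that binds actin, was at 15.7, 14.7, 17.4 and 17.9 CPM in KO and 5.01, 3.12, 3.44 and 5.28 CPM in wild type (1.96, SE 0.20, edgeR adjusted p = 1.57e-07). Lrp11, of the LDL receptor family, was at 17.3, 20.4, 16.3 and 19.9 CPM in KO and 7.02, 5.61, 4.34 and 6.33 CPM in wild type (1.66, SE 0.18, edgeR adjusted p = 2.86e-07). In these 3 genes every KO library was above every wild-type library. In the clones Klhl1 was at 1.03, -0.35 and 2.41 and Lrp11 at -0.92, 0.53 and -0.13.

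The other higher genes had lower levels. Ctse, the aspartic protease cathepsin E, rose by 1.99 on the log2 scale (SE 0.39) and Padi4, which converts arginine to citrulline in proteins, by 1.96 (SE 0.32). The chemokine gene Ccl9 rose by 1.95 (SE 0.29), the proteoglycan-cleaving metalloprotease gene Adamts5 by 1.85 (SE 0.39) and the zinc finger gene Zfp970 by 1.73 (SE 0.24). The remaining gene, 9930111J21Rik1, rose by 1.76 (SE 0.43) and belongs to a family of interferon-inducible GTPase genes whose members may share reads. Wild-type replicate 1 was the lowest library for all 6, and without it the changes of Ctse, Adamts5 and 9930111J21Rik1 were 1.64, 1.53 and 1.36. In the clones Padi4 was at -2.88, -1.53 and -4.70 and Zfp970 at 1.49, 1.46 and 1.30. Ctse was at -1.63, -0.24 and -1.32 there and Ccl9 at -0.41, -0.74 and 0.29. Adamts5 was at -0.10, -0.56 and -0.07 in the clones and 9930111J21Rik1 at 0.26, -0.33 and 1.93. Against the mean of the clones Btbd7 KO was at 0.31 for Zfp970.

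The 10 genes that fell most are given next. Gas1 (chromosome 13, 60174405 to 60177365), a membrane-anchored co-receptor for hedgehog proteins, was at 1.15, 1.33, 1.12 and 1.69 CPM in KO and 11.1, 7.98, 8.37 and 9.85 CPM in wild type. That is 7.01 times lower (log2 fold change -2.81, SE 0.26, edgeR adjusted p = 3.49e-08), from 9 to 20 counts per KO library. Kif26b, a kinesin-like protein known from kidney development, was at 3.07, 1.26, 1.74 and 1.69 CPM in KO and 7.15, 11.1, 14.6 and 12.8 CPM in wild type (-2.52, SE 0.24, edgeR adjusted p = 7.37e-08). Sema5a, a semaphorin guidance cue, fell by 2.43 (SE 0.33) with 3 to 32 counts per KO library. In the clones Gas1 was at -1.64, -0.21 and 0.33, Kif26b at 0.60, -0.59 and 0.56 and Sema5a at -0.83, 0.22 and -3.16. Dclk1 (chromosome 3, 55242364 to 55539068), a microtubule-binding kinase, was the most abundant of the 10 in wild type, at 21.0, 20.8, 19.5 and 19.9 CPM in KO and 73.6, 67.6, 71.4 and 65.8 CPM in wild type. Both groups were tight (-1.77, SE 0.08, edgeR adjusted p = 9.93e-14), and the clones were at -0.76, -0.59 and -1.75. No KO library reached the wild-type range in these 4 genes.

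Aldh3a1, an aldehyde dehydrogenase of surface epithelia, was at 4.70, 6.30, 4.96 and 4.22 CPM in KO and 22.6, 31.9, 27.4 and 26.9 CPM in wild type (log2 fold change -2.42, SE 0.19, edgeR adjusted p = 1.93e-09). It lies on chromosome 11, where most calls went the other way. Chdh, choline dehydrogenase, was at 4.34, 3.85, 3.35 and 2.79 CPM in KO and 24.97, 12.2, 17.4 and 24.7 CPM in wild type (-2.44, SE 0.24, edgeR adjusted p = 7.68e-08). Mgll, monoacylglycerol lipase, fell by 1.92 (SE 0.26). The remaining ones were Cachd1, a calcium channel modulator (-2.41, SE 0.18), Pmp22, a tetraspan protein of junctions and myelin (-2.41, SE 0.29), and Odf3l1 (-2.31, SE 0.27). For Pmp22 and Odf3l1 wild-type replicate 1 was the highest library, and without it they were at -2.13 and -1.92. In the clones Aldh3a1 was at -0.26, 1.39 and -1.71, Chdh at -0.15, 0.84 and 0.86 and Mgll at -1.57, -0.68 and -0.44. Cachd1 was at -0.33, -0.92 and 0.04 there, Pmp22 at -1.35, 0.53 and -2.29 and Odf3l1 at -1.18, 0.69 and -1.20.

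**Figure D4:**
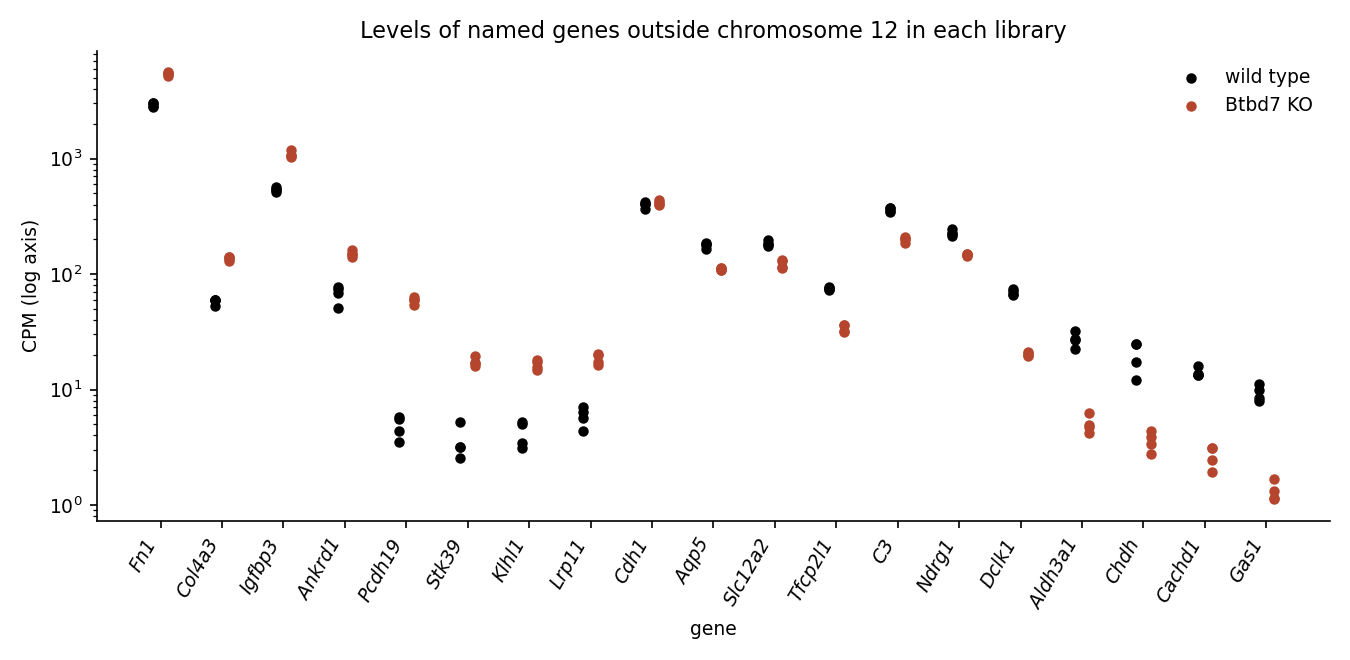
CPM on a log axis of 19 genes outside chromosome 12 in each of the 4 Btbd7 KO (red) and 4 wild-type (black) libraries. Cdh1 is the 1 gene shown whose groups overlap, and the distance between groups is widest at Pcdh19, where KO libraries lie between 54.3 and 62.8 CPM.

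Matrix genes had more higher than lower calls. Of 41 tested genes of basement membrane and matrix, 14 rose and 5 fell, or 16 and 8 without wild-type replicate 1. The median log2 fold change was 0.11, against 0.03 over all protein-coding genes, of which 9.63% rose and 9.62% fell. Without that library the shares over all protein-coding genes were 11.3% and 9.97%. Of the 14, 10 lie outside chromosomes 11, 12 and 19. Besides Fn1, the basement membrane collagen gene Col4a3, chosen after its values were seen, was at 129, 141, 140.1 and 135 CPM in KO and 59.9, 53.1, 59.9 and 59.6 CPM in wild type. The KO libraries were all above the wild-type ones (1.23, SE 0.11, edgeR adjusted p = 9.79e-09). Sparc, a matrix-binding glycoprotein, rose by 0.42 (SE 0.06) and the laminin chain Lamb1, on chromosome 12, by 0.42 (SE 0.09), while the laminin chain Lamb2 fell by 0.29 (SE 0.07). Col3a1, a fibrillar collagen, rose by 1.21 (SE 0.39, edgeR adjusted p = 0.0326), a call lost without Btbd7 KO replicate 1, 2 or 3 or wild-type replicate 3.

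Col1a1, Col1a2 and Col3a1 are also the fibroblast markers that could be tested, and all 3 rose, with the Col1a2 call lost without Btbd7 KO replicate 2 or wild-type replicate 3. The summed level of the 6 fibroblast markers was 22.5 to 35.2 CPM in KO and 11.4 to 18.5 CPM in wild type, without overlap. Of the defining markers, Lum had 0 counts in every library, Dcn 0 to 2 counts in KO and 0 in wild type, and Pdgfra 6 to 7 in KO and 0 to 5 in wild type. The part of such cells in the matrix result was not tested.

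Of 11 tested integrin genes, which encode receptors for this matrix, 2 rose and 0 fell, or 2 and 1 without wild-type replicate 1. Over all protein-coding genes the shares were 9.63% higher and 9.62% lower, or 11.3% and 9.97% without that library. Itga2, a collagen receptor chain, was at 59.6, 55.9, 54.5 and 55.4 CPM in KO and 41.6, 42.4, 38.9 and 40.6 CPM in wild type, without overlap (log2 fold change 0.46, SE 0.10, edgeR adjusted p = 0.00172). Itga3, a laminin receptor chain on chromosome 11, rose by 0.39 (SE 0.10). Itga6, Itgb1 and Itgb4, chains of laminin receptors, were at -0.10, -0.08 and -0.04 and did not pass (adjusted p of 0.248, 0.357 and 0.755 in edgeR).

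All called salivary lineage genes were lower. Of 11 tested, 0 rose and 5 fell, or 0 and 6 without wild-type replicate 1, with a median of -0.58, and none of the 5 lies on chromosome 3 or 12. Over all protein-coding genes 9.63% were higher and 9.62% lower, or 11.3% and 9.97% without that library. Tfcp2l1, a grainyhead-like transcription factor of ducts (chromosome 1, 118627945 to 118685168), was at 32.4, 36.4, 31.3 and 36.4 CPM in KO and 75.2, 74.5, 72.9 and 76.5 CPM in wild type (log2 fold change -1.13, SE 0.07, edgeR adjusted p = 5.26e-11). Aqp5, the water channel of acinar secretion, was at 114, 108, 113 and 109 CPM in KO and 187, 183, 177 and 165 CPM in wild type (-0.68, SE 0.07, edgeR adjusted p = 6.86e-08). Slc12a2, the cotransporter that loads chloride for secretion, was at 130.2, 113, 115 and 133 CPM in KO and 197, 182, 176 and 183 CPM in wild type (-0.58, SE 0.07, edgeR adjusted p = 2.2e-06). In these 3 genes all KO libraries were below all wild-type ones.

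In the clones, against the same wild-type libraries, Aqp5 was at -0.28, -0.37 and -0.61, Slc12a2 at -0.81, -0.75 and -1.52 and Tfcp2l1 at 0.08, 0.21 and 0.04. The other lower members of the salivary list were chosen after their values were seen. Trp63, the p63 factor of basal cells, fell by 2.06 (SE 0.42, edgeR adjusted p = 0.00112) from 20 to 59 counts in wild type to 4 to 16 in KO. Foxc1, a forkhead factor, was at -0.27 (edgeR adjusted p = 0.0252), a call lost without wild-type replicate 1 (-0.15, edgeR adjusted p = 0.123) or any of Btbd7 KO replicates 1 to 3. The developmental factor Sox9 was at 0.05 and did not pass.

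Junction and keratin genes had calls in both directions. Of 44 tested junction genes, 6 rose and 8 fell (median 0.00), against 9.63% higher and 9.62% lower over all protein-coding genes. Desmoplakin (Dsp), which anchors keratins at desmosomes, was at 531, 567, 525 and 516 CPM in KO and 699.9, 874, 854 and 780.2 CPM in wild type, without overlap (log2 fold change -0.58, SE 0.06, edgeR adjusted p = 1.27e-07). Plakoglobin (Jup), its partner encoded on chromosome 11, rose by 0.31 (SE 0.08) and the gap junction gene Gja1 by 0.28 (SE 0.06). Cldn1, a tight junction claudin chosen after its values were seen, had 14 to 23 counts per wild-type library and 0 in every KO library, at least 4.99-fold lower against a floor of 3 counts per KO library.

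Of 10 tested keratins 2 were called higher and 1 lower, or 1 and 3 without wild-type replicate 1. The shares over all protein-coding genes were 9.63% higher and 9.62% lower, or 11.3% and 9.97% without that library. Krt14, a basal keratin, and Krt19, a ductal keratin chosen after its values were seen, both on chromosome 11, were at 0.37 and 0.32, and Krt80 at -0.36 (SE 0.06). In the Zcchc8 KO clones Krt80 was lower too, at -0.59, -0.65 and -0.69, and Krt14 was at -0.77, -0.15 and -0.65. Against the mean of the clones Btbd7 KO was at 0.28 for Krt80 and 0.89 for Krt14. The Krt14 call was lost without wild-type replicate 4. The Krt19 call was lost without any 1 of the 4 Btbd7 KO libraries and without wild-type replicate 1 (0.20) or 4. Krt7, Krt8 and Krt18, keratins of simple epithelium, did not pass (adjusted p of 0.819, 0.352 and 0.305 in edgeR), but without wild-type replicate 1 Krt7 was lower by -0.25 and Krt18 by -0.24 (adjusted p of 0.0129 and 0.00435 in edgeR).

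Of 43 tested genes of the growth factor pathways that steer branching, 6 rose and 9 fell (median -0.00), or 9 and 11 without wild-type replicate 1. The shares over all protein-coding genes were 9.63% higher and 9.62% lower, or 11.3% and 9.97% without that library. Notch receptors were among the lower ones. Notch1 was at 203, 203, 181 and 199.9 CPM in KO and 304, 257, 295 and 263 CPM in wild type, without overlap (log2 fold change -0.51, SE 0.08, edgeR adjusted p = 8.11e-05). Notch3 fell by 0.83 (SE 0.12), whereas the Notch ligand gene Jag1 rose by 1.13 (SE 0.28), or 0.80 without wild-type replicate 1. Erbb3, a neuregulin receptor, was at 246, 254, 256 and 252 CPM in KO and 382, 297, 319 and 349 CPM in wild type (-0.42, SE 0.06, edgeR adjusted p = 2.39e-05). The receptor gene Fgfr1 fell by 1.32 (SE 0.17) and the ligand gene Wnt4 by 1.29 (SE 0.18). Gli1, a target of hedgehog signalling, rose by 1.41 (SE 0.43, edgeR adjusted p = 0.0241), a call lost without any 1 of Btbd7 KO replicates 1 to 3. Notch3, Jag1, Fgfr1, Wnt4 and Gli1 were chosen after their values were seen.

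**Figure D5:**
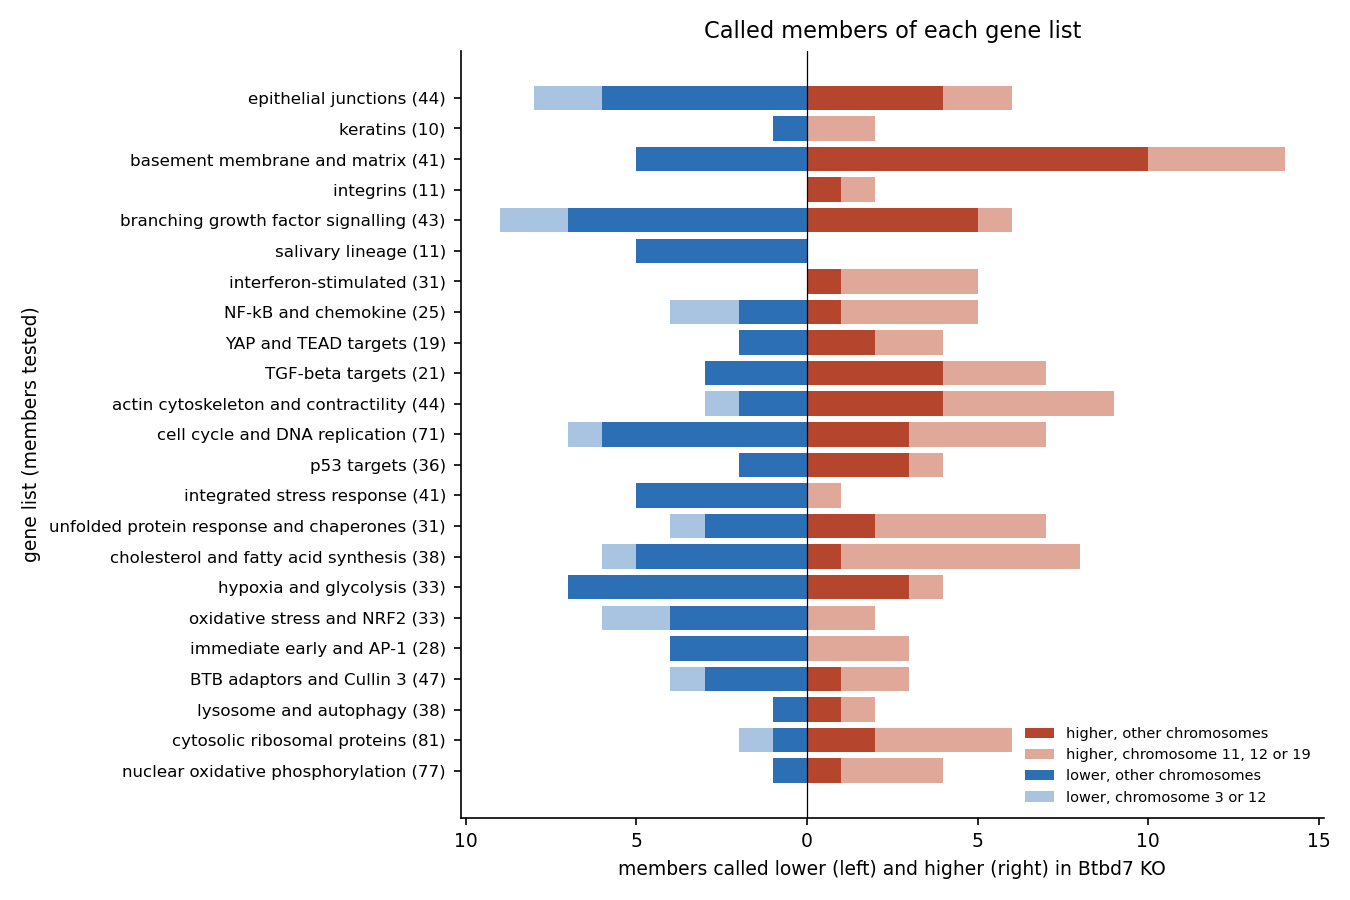
Number of members called lower (left, blue) and higher (right, red) in Btbd7 KO in each gene list with at least 10 tested members, whose number stands in brackets. Pale segments are higher calls on chromosomes 11, 12 and 19 and lower calls on chromosomes 3 and 12. Salivary lineage genes hold 5 lower and 0 higher calls, and 7 of 8 higher calls among cholesterol and fatty acid synthesis genes are pale.

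Targets of TGF-beta and of YAP and TEAD, the factors that respond to cell tension, had calls in both directions, against 9.63% higher and 9.62% lower over all protein-coding genes. Without wild-type replicate 1 those shares were 11.3% and 9.97%. Of 21 tested TGF-beta targets 7 rose and 3 fell, with 3 of the 7 on chromosomes 11 and 12. Of 19 YAP and TEAD targets 4 rose and 2 fell, with 2 of the 4 on chromosomes 11 and 19. Igfbp3, a growth factor binding protein on chromosome 11, was at 1045.8, 1032.5, 1074.2 and 1174.2 CPM in KO and 548, 571, 537 and 516 CPM in wild type (log2 fold change 0.99, SE 0.06, edgeR adjusted p = 1.44e-11). Its groups did not overlap. Ccn2, the matricellular protein CTGF, rose by 0.41 (SE 0.11), and Ankrd1, a YAP target on chromosome 19 chosen after its values were seen, by 1.13 (SE 0.14). In the clones Igfbp3 was at -0.38, -1.17 and -1.24. Of 44 actin genes 9 rose and 3 fell, or 11 and 9 without wild-type replicate 1, with 5 of the 9 on chromosomes 11, 12 and 19. They included Actb (0.20, SE 0.04) and the actin monomer binder Pfn1 (0.31, SE 0.09).

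Of 31 tested interferon-stimulated genes 5 rose and 0 fell (median 0.10), 4 of them on chromosome 11, where 33.1% of all protein-coding genes were higher, against 9.63% over all chromosomes. Ifitm3, which blocks viral entry, was the one elsewhere, on chromosome 7 (0.69, SE 0.19, edgeR adjusted p = 0.0108). Of 25 NF-kB and chemokine genes 5 rose, 4 of them on chromosomes 11 and 19, and 4 fell, or 8 and 4 without wild-type replicate 1. Over all protein-coding genes 9.63% were higher and 9.62% lower, or 11.3% and 9.97% without that library. Of the lower ones, Nfkb1 lies on chromosome 3 and Tnfaip2 on the telomeric side of chromosome 12. Complement C3 was at 199.9, 209, 186 and 199 CPM in KO and 348, 377, 371 and 348 CPM in wild type, without overlap (edgeR adjusted p = 1.37e-10, log2 fold change -0.86, SE 0.06). The cytokine gene Csf2, chosen after its values were seen, had 3 to 15 counts in KO and 0 to 1 in wild type. Of 5 immune markers, 1 could be tested (Cd68), and it did not pass (0.08, edgeR adjusted p = 0.817).

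Stress and metabolism lists held calls in both directions, against 9.63% higher and 9.62% lower over all protein-coding genes. Of 33 genes of oxidative stress and NRF2 2 rose and 6 fell. The glutathione transferases Gstm1 and Gstm2, close copies on chromosome 3 that may share reads, fell by 1.24 (SE 0.09) and 1.77 (SE 0.22). Gpx2, a glutathione peroxidase on the centromeric side of chromosome 12, had 23 to 43 counts in KO and 0 to 3 in wild type. These 3 genes were chosen after their values were seen.

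Of 33 hypoxia and glycolysis genes 4 rose and 7 fell, or 2 and 5 without wild-type replicate 1. For this and the next lists the shares over all protein-coding genes were 9.63% higher and 9.62% lower, or 11.3% and 9.97% without that library. Ndrg1, a hypoxia and differentiation marker, was at 143, 149, 149.6 and 147 CPM in KO and 224, 215, 245 and 226 CPM in wild type, without overlap (log2 fold change -0.63, SE 0.07, edgeR adjusted p = 4.41e-07). Hif1a itself lies on chromosome 12 and rose by 0.30 (SE 0.08). Of 38 genes of cholesterol and fatty acid synthesis 8 rose and 6 fell, and 7 of the 8 higher ones, among them Acly (0.49) and Fasn (0.26), which make acetyl-CoA and palmitate, lie on chromosomes 11, 12 and 19. Of 41 genes of the integrated stress response 1 rose and 5 fell, including the stress-induced chromatin protein gene Nupr1 (-0.99, SE 0.18). Of 31 genes of the unfolded protein response 7 rose and 4 fell, 5 of the 7 on chromosomes 11, 12 and 19.

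For growth and housekeeping lists, too, the shares over all protein-coding genes were 9.63% higher and 9.62% lower. Without wild-type replicate 1 they were 11.3% and 9.97%. Of 71 cell cycle and replication genes 7 rose and 7 fell, or 5 and 14 without wild-type replicate 1, and of 36 p53 targets 4 rose and 2 fell. Plk2, a p53-responsive kinase gene, rose by 0.61 (SE 0.10), and Trp53, on chromosome 11, by 0.45 (SE 0.09). Of 28 immediate early genes 3 rose and 4 fell, and of 38 lysosome and autophagy genes 2 rose and 1 fell, or 2 and 4 without wild-type replicate 1. Of 81 ribosomal protein genes 6 rose and 2 fell, or 9 and 5 without that library, and of 77 nuclear genes of oxidative phosphorylation 4 rose and 1 fell. Of 7 tested mitochondrially encoded genes 0 were called, or 1 without that library. Of 47 tested BTB adaptors and Cullin 3 genes, the wider family of Btbd7, 3 rose and 4 fell, Btbd7 among the latter. Spop, a Cullin 3 adaptor, and Klhl11, both on chromosome 11, rose by 0.35 (SE 0.07) and 0.49 (SE 0.09), and Klhl24 was at -0.67 (SE 0.14), or -0.40 without wild-type replicate 1.

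PROMPT regions, which are counted apart from the genes, followed the chromosomes. Of 17655 tested, 536 were called (3.04%), 239 higher (1.35%) and 297 lower (1.68%). With only the libraries of the groups compared in the fit, 322 were called. Scaling within the PROMPT table turned this split to 301 higher and 238 lower. Of the 9320 at protein-coding genes, 253 were called (2.71%), 130 higher (1.39%) and 123 lower (1.32%), with a median log2 fold change of -0.01. At genes on the centromeric side of chromosome 12, 25 of 257 were higher and 1 lower (median 0.35), and on the telomeric side 0 of 65 were higher and 5 lower (median -0.42). The medians were 0.12 on chromosome 11, 0.11 on chromosome 19, -0.20 on chromosome 3 and -0.02 elsewhere. Both tables may hold reads of the same transcripts, since how overlapping reads were counted is not given in the sources used here.

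The PROMPT regions with the largest increase, among those with a mean of at least 20 counts, lie at Sec31b, Dus4l and Vamp3. That of Sec31b, a gene of vesicle coats (chromosome 19, 44516957 to 44545864), was at 3.29, 3.00, 3.95 and 1.86 CPM in KO and 0.923, 1.33 and 0.758 CPM in wild-type replicates 2 to 4 (log2 fold change 1.59, SE 0.38, edgeR adjusted p = 0.01). Those of Dus4l, on chromosome 12, and Vamp3 rose by 1.52 (SE 0.44) and 1.499 (SE 0.37). Against the same wild-type libraries the Zcchc8 KO clones were at 1.26, 1.33 and 1.71 for Sec31b, at 1.16, 1.08 and 1.48 for Dus4l and at 1.84, 1.39 and 1.77 for Vamp3. The regions of Khnyn, Fut1 and Ripply1 fell most. Ripply1 (chromosome X, 139779549 to 139782353), a transcriptional corepressor of somite formation, had a region at 3.05, 2.53, 2.22 and 3.05 CPM in KO and 6.98, 7.17 and 8.86 CPM in wild type (-1.48, SE 0.19, edgeR adjusted p = 1.07e-07), and the gene itself was at -1.37 (edgeR adjusted p = 0.000429). The regions of Khnyn and Fut1 fell by 1.54 (SE 0.29) and 1.49 (SE 0.34). Khnyn itself was also called lower (-0.33, edgeR adjusted p = 0.0175), while Fut1 itself did not pass (-0.15, edgeR adjusted p = 0.769). In the clones the region of Ripply1 was at -1.08, 1.88 and -0.03. That of Khnyn was at 0.75, 1.00 and -0.22 there and that of Fut1 at 0.49, 0.27 and 0.81.

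Regulatory features, which are listed by identifier only, held few calls. Promoters had 121 called of 4642 (2.61%), 58 higher (1.25%) and 63 lower (1.36%), and promoter flanking regions 233 of 14137 (1.65%), 92 higher (0.651%) and 141 lower (0.997%). Enhancers had 78 of 9527 (0.819%), 37 higher (0.388%) and 41 lower (0.43%), CTCF sites 43 of 13122 (0.328%), 18 higher (0.137%) and 25 lower (0.191%), and open chromatin regions 33 of 8051 (0.41%), 12 higher (0.149%) and 21 lower (0.261%). Transcription factor binding sites had 5 of 2494 (0.2%), 2 higher (0.0802%) and 3 lower (0.12%). The median of each of these 6 classes lay between -0.09 and -0.05 with library sizes from the gene table. Scaling within each table turned the splits to 96 higher and 36 lower promoters, 138 and 76 promoter flanking regions, 55 and 23 enhancers, 18 and 14 CTCF sites, 13 and 12 open chromatin regions, and 5 and 3 binding sites, so no direction can be given for a class.

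Single features were picked as the highest or lowest log2 fold change among the called ones of their class, so their size is no separate evidence. The promoter flanking region ENSMUSR00000621848 was at 4.13, 2.40, 4.81 and 4.66 CPM in KO, from 36 to 69 counts, and at 0 counts in all 3 wild-type libraries, at least 21.1-fold higher against a floor of 3 counts per wild-type library. With 0 counts in wild type it could pass the count filter only through edited lines. The binding site ENSMUSR00000703726 was at 9.88, 7.53, 10.7 and 8.81 CPM in KO and 3.52, 3.10 and 2.97 CPM in wild type (log2 fold change 1.52, SE 0.26, edgeR adjusted p = 3.37e-05). Another binding site, ENSMUSR00000597384, went the other way, at 1.38, 0.867, 2.10 and 1.44 CPM in KO and 4.90, 6.21 and 6.53 CPM in wild type (-2.07, SE 0.27, edgeR adjusted p = 5.44e-08). The flanking region ENSMUSR00000082168 held 0 to 1 counts in KO and 6 to 17 in wild type.

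Counts of several classes moved by more than 1.5 times when 1 library was left out. Without wild-type replicate 4, 333 PROMPT regions, 79 promoters, 151 flanking regions, 28 CTCF sites and 13 binding sites were called. Without Btbd7 KO replicate 4 there were 154 flanking regions and 24 CTCF sites. Without Btbd7 KO replicate 2 there were 46 enhancers, 25 CTCF sites, 21 open chromatin regions and 9 binding sites, and without Btbd7 KO replicate 1 45 enhancers and 8 binding sites. Without wild-type replicate 2 there were 8 binding sites.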

How the data were processed

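The authors deposited raw counts of reads per gene or feature, as whole numbers, in 9 tables. A gene table holds all 20 libraries, another leaves out wild-type replicate 1, and so do the 7 feature tables. Reads were aligned with STAR 2.7.3a, per the submitters' processing notes. The counter, its strand setting and the build are not given in the sources used here, so reads of overlapping or antisense transcripts may not be told apart. Gene positions and biotypes come from GENCODE M21 on GRCm38 (54573 of 55471 identifiers matched with their version, 55230 without).

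The quasi-likelihood test of edgeR 4.0.16 was run on these counts in R 4.3.3 (glmQLFit, glmQLFTest; TMM; filterByExpr by group) in 1 fit per table over all 5 groups, with Benjamini-Hochberg adjustment over each table and a threshold of 0.05. Feature tables took library sizes and TMM factors from the gene table. Levels are CPM on the TMM-scaled gene totals. SE were derived from the quasi-likelihood F. Library medians use log2(CPM + 0.5). The scripts were tested on simulated data first. Replicates of each group differed by more than counting noise, so all were kept. Reads carry no molecular identifiers, so floors of 3 counts cover counting error only. The report gives the range of gene counts per group. The feature tables held 1569548 to 3490429 counts per library in PROMPT regions and 75051 to 165204 in binding sites, the smallest table.

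Named genes were protein-coding, averaged at least 50 counts and were called in 1 direction with and without wild-type replicate 1: outside chromosome 12 the 10 largest and 10 lowest, on chromosome 12 the 5 largest and 5 lowest, up to 4 per gene list by level, the neighbours of Btbd7, Snai2 and Cdh1, and further members marked as chosen after their values were seen. List members without a call, Itga6, Itgb1, Itgb4, Sox9, Krt7, Krt8, Krt18 and Cd68, are given outside this rule. The members, the 32 gene lists and the tests were chosen with earlier results of these data known. Most named genes were picked by a call in these same libraries, so a lack of overlap between their groups is no further evidence. Lists and chromosomes are described without a test. Alternatives, whose effect the closing section gives, were DESeq2 1.42.0, RLE factors, no TMM, TMM within a table, other filters, only the 2 groups compared, a replicate block, a log2 threshold of 1, the gene table that lacks wild-type replicate 1, and each library left out in turn. Some genes are not reported here.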

Additional observations from a re-analysis of the deposited data

Results flagged for a closer look

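Within groups of 4 libraries, 17 of 310 checked held 1 library far from the other 3, against 15.5 that chance would give at 1 in 20. The measure is the gap to the nearest library divided by the range of the group, and 7 of the 17 concern wild-type replicate 1.

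In that library 9930111J21Rik1 was at 0 CPM where wild-type replicates 2 to 4 had 2.87 to 3.29 (ratio 0.874), and Cachd1 was at 15.998 against 13.4 to 13.6 (0.914). Odf3l1 was at 19.5 CPM against 7.87 to 9.68 (0.845) and Ahnak2 at 458 against 340.1 to 359 (0.839). The receptor gene Tgfbr1 was at 245 CPM against 172 to 184 (0.839), the chaperone gene Hsp90b1 at 659 against 559.6 to 574 (0.854) and the lysosomal cholesterol carrier gene Npc2 at 54.2 against 70.8 to 71.4 (0.961).

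Other wild-type libraries stood apart at 3 genes. Grhl1 was at 29.2 CPM in replicate 3 against 38.6 to 39.1 (0.947), and Nfkbiz at 68.5 in the same library against 80.4 to 81.2 (0.937). Col4a3 was at 53.1 CPM in replicate 2 against 59.6 to 59.9 (0.954).

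Among Btbd7 KO libraries, replicate 4 was apart for Krt80 (281 CPM against 251 to 255, ratio 0.887), Lamb1 (335 against 372 to 377, 0.861) and the topoisomerase gene Top2a (1075.1 against 1135.7 to 1147.0, 0.843). Replicate 2 was apart for Hif1a (399.9 CPM against 415 to 416, 0.916) and the chemokine gene Ccl2 (0.995 against 1.86 to 1.99, 0.872). Itga3 was at 510.4 CPM in replicate 1 against 539.8 to 545 (0.842), and Notch1 at 181 in replicate 3 against 199.9 to 203 (0.845).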

How the results depend on the processing

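Of the counts of calls and chromosome medians under all alternatives, 162 stayed near their value (counts within 1.5 times, medians within 1 SD of the Btbd7 KO library medians) and 33 moved. With only Btbd7 KO and wild type in the fit, 1237 genes, 322 PROMPT regions and 12 binding sites were called. With a log2 fold change beyond 1 required, 340 genes were called. Binding sites numbered 12 with DESeq2, 8 with scaling within the table and 11 with a mean of at least 10 counts. The median was 0.16 on chromosome 19 and -0.19 on chromosome 3 in the other gene table, and -0.22 on chromosome 3 with RLE factors. Leaving out each library in turn gave 1837 to 3151 genes, 333 to 566 PROMPT regions, 79 to 116 promoters, 151 to 194 flanking regions, 45 to 72 enhancers, 24 to 41 CTCF sites, 21 to 40 open chromatin regions and 5 to 13 binding sites. The medians then ran from 0.37 to 0.39 and from -0.36 to -0.34 on the centromeric and telomeric sides of chromosome 12, from 0.22 to 0.26 on chromosome 11, from 0.16 to 0.23 on chromosome 19 and from -0.22 to -0.19 on chromosome 3. The causes were not tested.

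The replicate numbers did not pair the libraries: deviations of same-numbered libraries correlated between -0.07 and 0.10, and 1 of 4 Btbd7 KO libraries correlated best with its own number. With the number as a replicate block 2353 genes, 431 PROMPT regions, 121 promoters, 209 flanking regions, 60 enhancers, 33 CTCF sites, 26 open chromatin regions and 5 binding sites were called, and the medians were 0.38 and -0.35 on the sides of chromosome 12, 0.24 on chromosome 11, 0.20 on chromosome 19 and -0.20 on chromosome 3.

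Over the named genes and all alternatives, 152 values lost the call, 43 of them in the fit of only the groups compared, 3 gained it and none changed direction.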
